A study of Mus musculus with 2 samples.

Results

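Erythroferrone (Erfe) and 6 C1q/TNF-related protein genes, C1qtnf1, C1qtnf2, C1qtnf3, C1qtnf6, C1qtnf7 and C1qtnf9, were followed through the cell types of aged mouse hindlimb muscle. The 7 genes were taken by symbol from the 32285 genes in the files, and all 7 were found. They were chosen by their UMI counts per cell type and library in earlier results of these same files, so every value here is a description and none supports the choice. The study asked how restoring retinoic acid signalling acts on old muscle. Female C57Bl/6J mice of 24 months had 3 intramuscular injections over a week. The ATRA+agonist group received all-trans retinoic acid (ATRA) with CD3254, an agonist of the retinoid X receptor RXRα, and BMS961, an agonist of the retinoic acid receptor RARγ, and the DMSO vehicle group received the carrier. Per the study's methods, quadriceps and gastrocnemius were dissected, cells were sorted on propidium iodide, and the cells of 2 mice were pooled into 1 droplet library (10x Genomics 3′ single-cell RNA-Seq) per group. There were therefore no replicate libraries, no test of the treatment was possible, and the intervals given here cover counting error only.

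The C1q/TNF-related proteins, also called CTRPs, are secreted relatives of the fat hormone adiponectin. Each joins a collagen-like stretch to a globular C1q domain at the C terminus, and they are known as signals between adipose, vascular and skeletal tissues. Erythroferrone belongs to the same family: red cell precursors release it in response to erythropoietin, acting through JAK2 and STAT5, and it binds bone morphogenetic proteins such as BMP6 and so lowers hepcidin, the liver hormone that limits iron entry. The same protein has been described in muscle as the myokine myonectin.

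The files held 10444 barcodes for ATRA+agonist and 17394 for vehicle, of which 6907 and 6953 passed the cell filters with medians of 4683 and 4847 UMIs (unique molecular identifiers, each counting 1 captured RNA molecule). The 2 libraries shared 43 barcode sequences, and 9 of these were kept in both. Clustering without the 7 genes gave 26 clusters, 22 of which were named from marker genes as 12 classes. Names such as muscle stem cell-like were rebuilt here and may differ from the study's own. The muscle fiber-like class (230 cells of ATRA+agonist and 0 of vehicle) and the neutrophil-like class (23 and 153) were too small in 1 library to compare, which left 10 classes. Levels are given as CPM, the counts of a gene per 1000000 UMIs of its class and library. A ratio was computed where a gene had at least 20 UMIs over both libraries, and past 2-fold means a log2 ratio of at least 1 or at most -1.

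Positions are those of the GENCODE annotation of GRCm38, the build named in the labels. Erfe (ENSMUSG00000047443) lay at chr1:91366430-91374217 on the plus strand, and its span overlapped Ilkap on the other strand. C1qtnf2 lay at chr11:43474276-43491525 and C1qtnf3 at chr15:10952332-10980150, both on the plus strand, with no overlapping gene. C1qtnf1 lay at chr11:118428203-118449963 (plus strand) over 1 antisense gene, C1qtnf6 at chr15:78523346-78531416 (minus strand) over 1 antisense gene, and C1qtnf9 at chr14:60768134-60780869 (plus strand) over 1 antisense gene. C1qtnf7, at chr5:43515538-43618803 on the plus strand, overlapped 3 annotated genes. Those on the same strand, Gm43022 and Gm43023, were not among the counted genes, and the counted one, Gm15866, lay on the other strand.

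RefSeq promoter windows on GRCm38 were found for 6 of the 7 genes, all but C1qtnf1, and the 250 bases before the start are shown for 4 of them. Erfe and C1qtnf3 are shown because both were carried by muscle stem cell-like cells, where their ratios had opposite signs, and C1qtnf2 and C1qtnf7 because theirs were the windows with a motif match. Capitals mark a match to 1 of 4 motifs searched on both strands: AGGTCA (the nuclear receptor half-site), its direct repeat spaced by 5 bases (which overlaps the first), TTCNNNGAA (a STAT site) and CAGCTG (an E-box).
Erfe (chr1:91366180-91366429, plus strand): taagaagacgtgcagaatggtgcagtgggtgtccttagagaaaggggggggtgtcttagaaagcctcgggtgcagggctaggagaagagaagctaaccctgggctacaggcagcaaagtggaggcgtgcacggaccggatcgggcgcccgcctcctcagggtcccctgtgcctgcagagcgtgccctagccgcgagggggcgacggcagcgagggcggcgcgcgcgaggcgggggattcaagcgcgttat
C1qtnf3 (chr15:10952082-10952331, plus strand): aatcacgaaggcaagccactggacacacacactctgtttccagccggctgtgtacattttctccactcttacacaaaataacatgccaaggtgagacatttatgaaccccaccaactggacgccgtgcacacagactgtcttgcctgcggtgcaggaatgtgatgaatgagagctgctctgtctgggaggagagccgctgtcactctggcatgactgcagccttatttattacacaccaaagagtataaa
C1qtnf2 (chr11:43474056-43474305, plus strand): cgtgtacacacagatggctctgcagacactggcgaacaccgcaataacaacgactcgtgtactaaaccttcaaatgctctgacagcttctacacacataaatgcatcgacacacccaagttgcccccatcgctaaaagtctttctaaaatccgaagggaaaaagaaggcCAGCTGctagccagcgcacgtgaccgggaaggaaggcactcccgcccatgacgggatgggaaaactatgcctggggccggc
C1qtnf7 (chr5:43515319-43515568, plus strand): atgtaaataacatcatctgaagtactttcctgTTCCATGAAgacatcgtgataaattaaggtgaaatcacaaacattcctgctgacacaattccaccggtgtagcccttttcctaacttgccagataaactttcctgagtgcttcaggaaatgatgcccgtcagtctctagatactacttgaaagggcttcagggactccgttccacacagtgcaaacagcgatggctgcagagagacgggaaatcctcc
None of the 6 windows of 300 bases held AGGTCA, which 16.3% of the 32851 RefSeq promoter windows held. The direct repeat was in 3 of those windows. The STAT site was in 8.30% of all windows and in that of C1qtnf7, 218 bases before the start. The E-box was in 16.3% of all windows and in that of C1qtnf2, 81 bases before the start. A match is a string of letters and not a bound site, and these windows leave out distant elements.

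The 7 genes differed in how widely they were spread over the cell classes. Among the kept cells Erfe was almost confined to muscle stem cell-like cells, which held 170 of its 180 UMIs (94.4%), and C1qtnf9 to endothelial-like cells, which held 6427 of 6702 (95.9%). Muscle fiber-like cells, found only in ATRA+agonist, had 0 Erfe UMIs in 230 cells, which allows up to 7.86 CPM. Muscle stem cell-like cells of that library had 9.57 CPM, so how much Erfe fibers hold could not be judged here. C1qtnf3 was carried by muscle stem cell-like cells (689 of 1001 UMIs) and by tenocyte-like cells. C1qtnf1, C1qtnf2, C1qtnf6 and C1qtnf7 formed a stromal group, with most UMIs in fibro-adipogenic progenitor (FAP)-like cells, which make the connective tissue of muscle. The CPM of C1qtnf1 was highest in FAP-like cells (54.6 in ATRA+agonist and 35.4 in vehicle) and next highest in smooth muscle or pericyte-like cells (30.6 and 33.0). That of C1qtnf2 was highest in smooth muscle or pericyte-like cells (85.3 and 52.2), and its intervals there overlapped those of FAP-like cells (64.9 and 39.4) in both libraries. C1qtnf7 was highest in FAP-like cells (73.9 and 65.6). The mean CPM of C1qtnf6 was highest in perineurial-like cells, but on 11 UMIs in all, so its values are given for FAP-like cells (20.3 and 14.4), which held 460. Its levels in smooth muscle or pericyte-like cells (18.6 and 14.6) and tenocyte-like cells (15.4 and 15.7) lay within the counting error of those. C1qtnf7 came next in perineurial-like cells (45.9 and 32.4, on 8 and 15 UMIs).

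**Figure D1:**
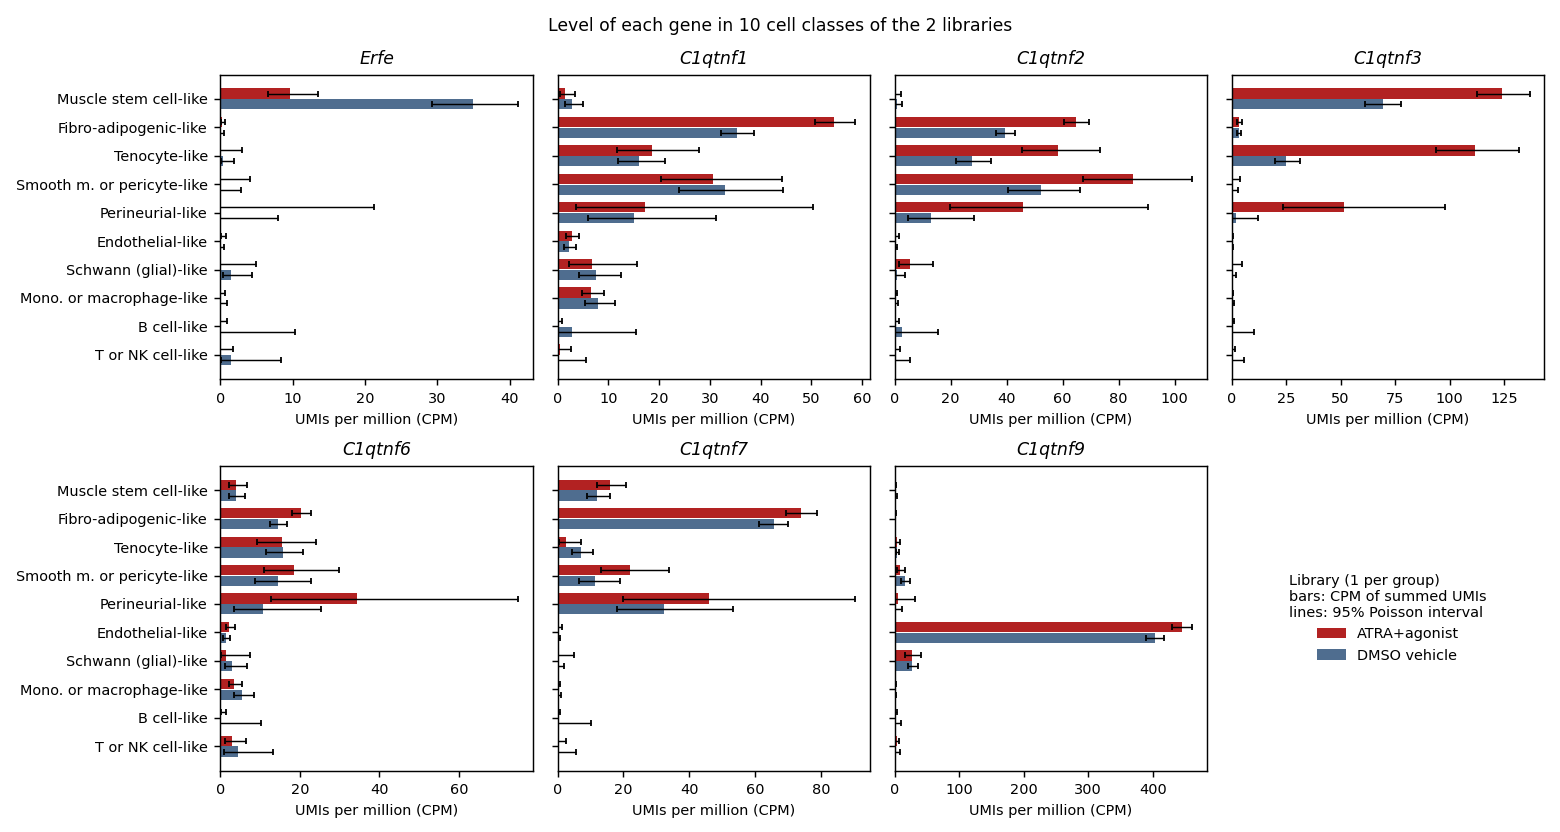
Level of each of the 7 genes (CPM, linear axis from 0) in 10 cell classes; red bars are the ATRA+agonist library and blue bars the DMSO vehicle library, and lines are 95% Poisson intervals. Erfe stands in muscle stem cell-like cells (9.57 and 34.9 CPM) and C1qtnf9 in endothelial-like cells (446 and 403 CPM), while C1qtnf1, C1qtnf2, C1qtnf6 and C1qtnf7 spread over the stromal classes.

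Erfe was lower in the muscle stem cell-like cells of ATRA+agonist. These are the resident progenitors that repair muscle. In the ATRA+agonist library 32 Erfe UMIs were counted in 415 such cells (9.57 CPM, 95% Poisson interval 6.55 to 13.5), and in vehicle 138 UMIs in 530 cells (34.9 CPM, 29.3 to 41.2). The intervals did not overlap, and vehicle was 3.64-fold higher, a log2 ratio (ATRA+agonist over vehicle) of -1.86 with a 95% counting interval of -2.47 to -1.30. Of the 4 genes of the set with a ratio in this class, 0 were past 2-fold higher and 1, Erfe, was past 2-fold lower, where 2.83% of the 11605 genes with a ratio were higher and 2% lower. Erfe was used in choosing the set, so nothing is read from this count.

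Fewer cells carried Erfe, and each carried less. An Erfe UMI was found in 25 of 415 cells of ATRA+agonist (6.02%, exact Clopper-Pearson interval 3.94 to 8.76) and in 70 of 530 of vehicle (13.2%, 10.4 to 16.4), although the former were the deeper cells (medians of 7464 and 6460.5 UMIs). Cells with 2 or more Erfe UMIs numbered 5 in ATRA+agonist and 32 in vehicle, and the highest count in a cell was 3 against 8. With every cell thinned to 1000 UMIs the shares were 0.973% of 411 cells (4 cells left out) and 3.40% of 530 cells. Endothelial-like cells, at medians of 2838 and 3299 UMIs, gave the background: 1 of 2453 cells of ATRA+agonist (0.0408%) and 0 of 2283 of vehicle, which allows a share of up to 0.131%. The muscle stem cell-like shares of both libraries lay far above it.

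**Figure D2:**
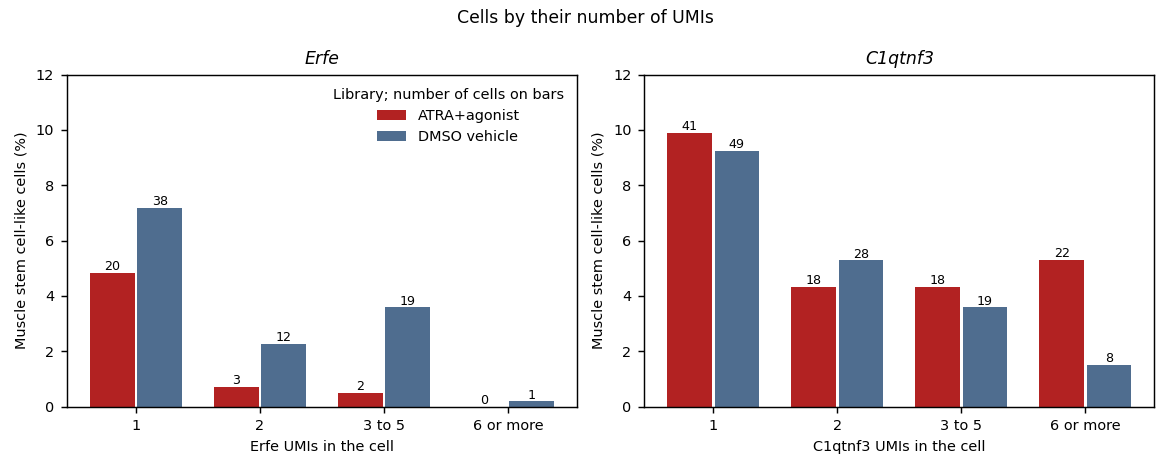
Share of muscle stem cell-like cells (%) by the number of Erfe (left) or C1qtnf3 (right) UMIs in the cell, for ATRA+agonist (red, 415 cells) and DMSO vehicle (blue, 530 cells), with the number of cells above each bar and cells without a UMI left out. Erfe bars are lower in ATRA+agonist at every count, whereas for C1qtnf3 the libraries part at 6 or more UMIs, with 22 cells in ATRA+agonist and 8 in vehicle.

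Red cells themselves held next to no Erfe. In barcodes with at least 50% hemoglobin UMIs, which are red cells or their RNA, 0 Erfe UMIs were found in 2314 barcodes of ATRA+agonist and 1 in 8125 barcodes of vehicle. Hemoglobin UMIs moved with the result, and their part in it was not tested. Of 13 erythroid genes, the 4 hemoglobin genes had a ratio in muscle stem cell-like cells. All 4 were past 2-fold lower (median log2 -1.61 against 0.05 over all genes), where 2% of all genes were lower. The summed list level was 290 CPM in ATRA+agonist and 864 in vehicle. Of the whole list, 5 genes were at 0 there in ATRA+agonist and 8 in vehicle. Slc4a1, Gata1, Klf1 and Rhag, which mark red cells and their precursors, were at 0 in both libraries. Listed genes other than hemoglobin were thus not all at 0. The list was lower by a like amount in FAP-like cells (median -1.69 over 7 genes with a ratio), where Erfe had 3 and 1 UMIs in all.

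Of 18 genes of the BMP and hepcidin axis around Erfe, 11 had a ratio in muscle stem cell-like cells. Of these, 0 were past 2-fold in either direction (median 0.08), where 2.83% of all genes were higher and 2% lower. Nothing is read from a count so near those shares. The largest were Bmp4, a BMP ligand, at 181 and 110 CPM (log2 ratio 0.72, 0.54 to 0.90), and Id1, a transcriptional target of BMP signalling, at 170 and 104 CPM (0.71, 0.53 to 0.90). Atoh8, another BMP target, had a ratio of 0.54 (-0.10 to 1.18), and Stat5a, which relays the erythropoietin signal, -0.40 (-0.67 to -0.12). Bmp6, which erythroferrone binds and which was picked after its values were seen, was plentiful at 309 and 293 CPM (0.08, -0.04 to 0.20). Epor, the erythropoietin receptor, had 3 UMIs in ATRA+agonist and 0 in vehicle, and Hamp, which encodes hepcidin, 2 and 0. C1qtnf12, the paralogue of Erfe in the family and also picked after its values were seen, had 65 and 77 UMIs in these cells (19.4 and 19.5 CPM), a log2 ratio of 0.00 (-0.50 to 0.49).

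C1qtnf3 (CTRP3, first known from cartilage) had the opposite sign in the same cells. The ATRA+agonist library held 415 UMIs (124 CPM, 112 to 137) and vehicle 274 UMIs (69.2 CPM, 61.3 to 77.9), a log2 ratio of 0.84 (0.62 to 1.07). The shares of cells with a UMI were close, 23.9% (19.8 to 28.3) and 19.6% (16.3 to 23.3), and their intervals overlapped. The difference lay in the cells with many UMIs: 22 cells of ATRA+agonist and 8 of vehicle held 6 or more, and the 10 cells with most UMIs held 42.7% and 39.8% of the C1qtnf3 UMIs of their library. Thinned to 1000 UMIs per cell, the shares were 7.54% of 411 cells and 4.15% of 530 cells. No C1qtnf3 UMI was found in endothelial-like cells.

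Cells with Erfe carried C1qtnf3 about as often as all muscle stem cell-like cells did: 7 of 25 (28%) against 23.9% in ATRA+agonist, and 12 of 70 (17.1%) against 19.6% in vehicle. The C1qtnf3 cells were deeper (medians of 10456 and 10707 UMIs in ATRA+agonist and vehicle, against 6589 and 5958.5 without a UMI), so other genes were compared after thinning each cell to 1000 UMIs, a split by C1qtnf3 chosen after its values were seen. Cdkn1c, an inhibitor of cell cycle entry, stood at 303 CPM (205 to 433) in ATRA+agonist cells with C1qtnf3 and 89.7 (59.6 to 130) in those without, and at 250 (163 to 366) and 32.9 (18.0 to 55.1) in vehicle. Ccnd1, which encodes cyclin D1, stood at 212 (131 to 324) against 41.7 (22.2 to 71.3) in ATRA+agonist, and at 86.5 (39.6 to 164) against 35.2 (19.7 to 58.1) in vehicle, where the intervals overlapped. The Cdkn1c UMIs lay in few cells: before thinning, 10 cells held 79.0% of those of ATRA+agonist and 55.0% of those of vehicle. Chodl, associated with quiescent muscle stem cells, was lower with C1qtnf3 in vehicle, at 394 (283 to 535) against 620 (547 to 699) CPM, and at 343 (238 to 480) against 548 (469 to 637) in ATRA+agonist, where the intervals overlapped. Other state genes did not follow: the intervals of Pax7, Vcam1, Myf5, Hes1, Heyl and Spry1 overlapped in both libraries. Pax7 was at 434 against 519 CPM in ATRA+agonist and 308 against 322 in vehicle. Vcam1 was at 313 against 288 and 231 against 228. The immediate-early genes Fos and Jun were lower with C1qtnf3 in both libraries, with intervals that did not overlap: Fos at 3404 against 4503 CPM in ATRA+agonist and 1923 against 2535 in vehicle, and Jun at 1636 against 2208 and 981 against 1596. Both were also lower with Erfe in vehicle (Fos 1600 against 2539 CPM, Jun 957 against 1554). In ATRA+agonist Fos was lower with Erfe too, at 3160 (2502 to 3938) against 4308 (4104 to 4520) CPM. Jun there was at 1880 (1381 to 2500) against 2083 (1941 to 2232), where the intervals overlapped. Over the whole class Fos and Jun were higher in ATRA+agonist (log2 ratios of 0.97 and 0.66). Cells with Erfe had little Cdkn1c: 0 UMIs in the 25 such cells of ATRA+agonist, which the interval extends to 148 CPM against 150 (114 to 194) without Erfe, and 1 UMI in the 70 of vehicle (14.3 CPM, 0.362 to 79.6, against 84.8, 60.3 to 116). These intervals overlapped in both libraries. Calcr, which keeps muscle stem cells quiescent, was at 143 CPM (68.5 to 263) with Erfe and 309 (260 to 364) without in vehicle, where the intervals overlapped narrowly, and at 320 and 324 CPM in ATRA+agonist. Split by C1qtnf3, Calcr was at 163 (95.2 to 262) with and 317 (266 to 375) without in vehicle, where the intervals did not overlap. In ATRA+agonist it was at 253 (163 to 373) and 346 (284 to 418), where they did.

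Myog, the transcription factor of myogenic differentiation, moved with C1qtnf3, a split also chosen after its values were seen. Of 16 state genes of muscle stem cells, 1 was past 2-fold higher in ATRA+agonist and 0 lower (median 0.53). Over all genes of the class 2.83% were higher and 2% lower. The 1 state gene was Myog, with 499 and 35 UMIs. Only 16 cells of ATRA+agonist and 2 of vehicle held a Myog UMI. C1qtnf3 was found in 14 of those 16 (519 CPM) and in both of those 2, and in 85 of the 399 cells without Myog (94.3 CPM) and 102 of 528 (63.2 CPM). Erfe was found in 0 of the 16 and 0 of the 2. Without the Myog cells the log2 ratio was 0.58 (0.33 to 0.83) for C1qtnf3 and -1.77 (-2.37 to -1.21) for Erfe.

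The filter on barcodes with over 5000 genes removed further C1qtnf3 UMIs. It took 76 barcodes of ATRA+agonist, with 298 C1qtnf3 UMIs, and 75 of vehicle, with 213. Of these, 15 and 16 barcodes held at least 5 of the 9 muscle stem cell markers, and C1qtnf3 was found in 14 of each (369 CPM, 317 to 427, and 298 CPM, 251 to 350). Mki67, a marker of dividing cells, was at 98.3 and 55.0 CPM in them, against 14.7 and 8.34 CPM in the kept muscle stem cell-like cells. Cdkn1c was also higher in them, at 346 against 180 CPM in ATRA+agonist and 153 against 114 in vehicle. So was Ccnd1, at 207 against 119 and 128 against 70.3 CPM. Hes1 was higher in ATRA+agonist (117 against 76.3) and lower in vehicle (30.6 against 51.8). Some state genes were lower in both libraries. Myog was at 77.9 against 149 CPM in ATRA+agonist. In vehicle it had 0 UMIs among 490695, against 8.84 CPM that came from 2 cells, so nothing is read from that difference. Pax7 was at 221 against 521 and 194 against 325, and Chodl at 94.2 against 501 and 67.2 against 498. Erfe had 1 UMI in these barcodes of ATRA+agonist and 18 in those of vehicle (2.05 and 36.7 CPM, intervals 0.052 to 11.4 and 21.7 to 58.0), so Erfe was lower in ATRA+agonist in the barcodes that the filter had set aside too. These barcodes had medians of 26115 and 27866 UMIs and were not screened for doublets. Whether each was a single cell was not tested.

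C1qtnf3 was higher in the tenocyte-like cells of ATRA+agonist as well. Tenocytes build and maintain tendon. The ATRA+agonist library held 138 UMIs in 162 cells (112 CPM, 93.9 to 132) and vehicle 75 UMIs in 504 cells (25.1 CPM, 19.7 to 31.4), a log2 ratio of 2.16 (1.74 to 2.58). Cells with a UMI made up 20.4% (14.5 to 27.4) and 6.15% (4.22 to 8.62), at medians of 7145 and 5226.5 UMIs per cell. A few cells carried much of the sum: 1 cell of ATRA+agonist held 45 UMIs and the 10 richest 79.7%, and without the 10 richest cells of each library the log2 ratio was 1.29 (0.49 to 2.08). Thinned to 1000 UMIs, 6 of 159 cells and 10 of 502 cells had a UMI, a log2 ratio of 0.96 (-0.52 to 2.34) whose interval includes 0. The summed tenocyte markers were at 21726 CPM in the ATRA+agonist cells with C1qtnf3 and 17929 CPM in those without, while the muscle stem cell markers were at 310 and 465 CPM. The few FAP-like cells with C1qtnf3 (16 and 21) also held tenocyte markers, at 1803 and 1917 CPM against 176 and 207 in those without.

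C1qtnf2 (CTRP2) was higher in ATRA+agonist in each of the 3 classes where it had a ratio. In FAP-like cells 861 UMIs were counted in 1302 cells (64.9 CPM, 60.6 to 69.4) and 522 in 1591 cells of vehicle (39.4 CPM, 36.1 to 43.0), a log2 ratio of 0.72 (0.56 to 0.88). Smooth muscle or pericyte-like cells held 78 and 68 UMIs (85.3 and 52.2 CPM), a ratio of 0.71 (0.22 to 1.20). In tenocyte-like cells they were 72 and 83 (58.3 and 27.7 CPM), a ratio of 1.07 (0.60 to 1.55). The last rests on few UMIs per cell, and after thinning to 1000 UMIs, which left it in 3 and 12 cells, the ratio was -0.46 (-2.91 to 1.41). Of the 5 genes of the set with a ratio in tenocyte-like cells, 2 (C1qtnf2 and C1qtnf3) were past 2-fold higher and 1 (C1qtnf7) lower, where 2.08% of all genes were higher and 5.47% lower. The C1qtnf7 value rests on 3 and 21 UMIs (-1.53, -3.92 to 0.21).

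C1qtnf1 (CTRP1) and C1qtnf6 (CTRP6) were also higher in the FAP-like cells of ATRA+agonist. C1qtnf1 had 724 and 469 UMIs (54.6 CPM, 50.7 to 58.7, and 35.4 CPM, 32.3 to 38.8), a log2 ratio of 0.62 (0.45 to 0.79). C1qtnf6 had 269 and 191 UMIs (20.3 CPM, 17.9 to 22.8, and 14.4 CPM, 12.5 to 16.6), a ratio of 0.49 (0.22 to 0.77). These were shifts of a like size to that of C1qtnf2 and none was past 2-fold: of the 6 genes of the set with a ratio in FAP-like cells, 0 were past 2-fold in either direction, where 1.2% of all genes were higher and 3.69% lower. Outside FAP-like cells the C1qtnf1 ratio lay between -0.25 and 0.29 in 5 other classes, and each interval included 0.

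C1qtnf7 (CTRP7), the fourth stromal gene, stood apart from the other 3. It had 981 UMIs in ATRA+agonist (73.9 CPM, 69.4 to 78.7) and 868 in vehicle (65.6 CPM, 61.3 to 70.1) in FAP-like cells, a log2 ratio of 0.17 (0.04 to 0.31). A single cell of ATRA+agonist held 121 of these UMIs, and without the richest cell of each library the ratio was 0.01 (-0.13 to 0.15). The share of cells with a UMI was 20.5% (18.3 to 22.8) and 21.7% (19.7 to 23.8), while the shares for C1qtnf1 were 37.9% and 22.3%, for C1qtnf2 41.2% and 24.4%, and for C1qtnf6 16.4% and 10.1%. FAP-like cells were deeper in ATRA+agonist (medians of 9902 and 8008 UMIs). Thinned to 1000 UMIs, the shares were 4.77% and 3.58% for C1qtnf1, 6.69% and 3.77% for C1qtnf2, 2.15% and 1.32% for C1qtnf6, and 5.69% and 5.35% for C1qtnf7, with 1 cell left out of each library. Before thinning, and so at unequal depth, none of these 4 genes was found in 27.8% of the FAP-like cells of ATRA+agonist and in 45.3% of those of vehicle.

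The 3 FAP-like clusters differed in which gene they carried most. Cluster 1 was led by Cxcl14 and Smoc2, cluster 6 by Gdf10 and Fst, and cluster 7 by Sema3c and Pi16, of which Pi16 marks fibroblasts of the adventitia. C1qtnf1 was highest in cluster 7 (74.7 CPM in ATRA+agonist and 52.2 in vehicle) and lowest in cluster 6 (38.4 and 27.1). C1qtnf2 was highest in cluster 6 (92.7 and 47.6 CPM) and lowest in cluster 7 (47.6 and 28.4). Both were higher in ATRA+agonist in all 3 clusters, with log2 ratios of 0.50 to 0.72 for C1qtnf1 and 0.60 to 0.96 for C1qtnf2, and no interval included 0. The C1qtnf6 ratio was 0.17 (-0.21 to 0.55) in cluster 1, 0.76 (0.12 to 1.40) in cluster 6 and 0.81 (0.28 to 1.36) in cluster 7. C1qtnf7 had ratios of -0.13 (-0.36 to 0.10), 0.16 (-0.07 to 0.40) and 0.66 (0.42 to 0.91), and the cell with 121 UMIs lay in cluster 7.

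**Figure D3:**
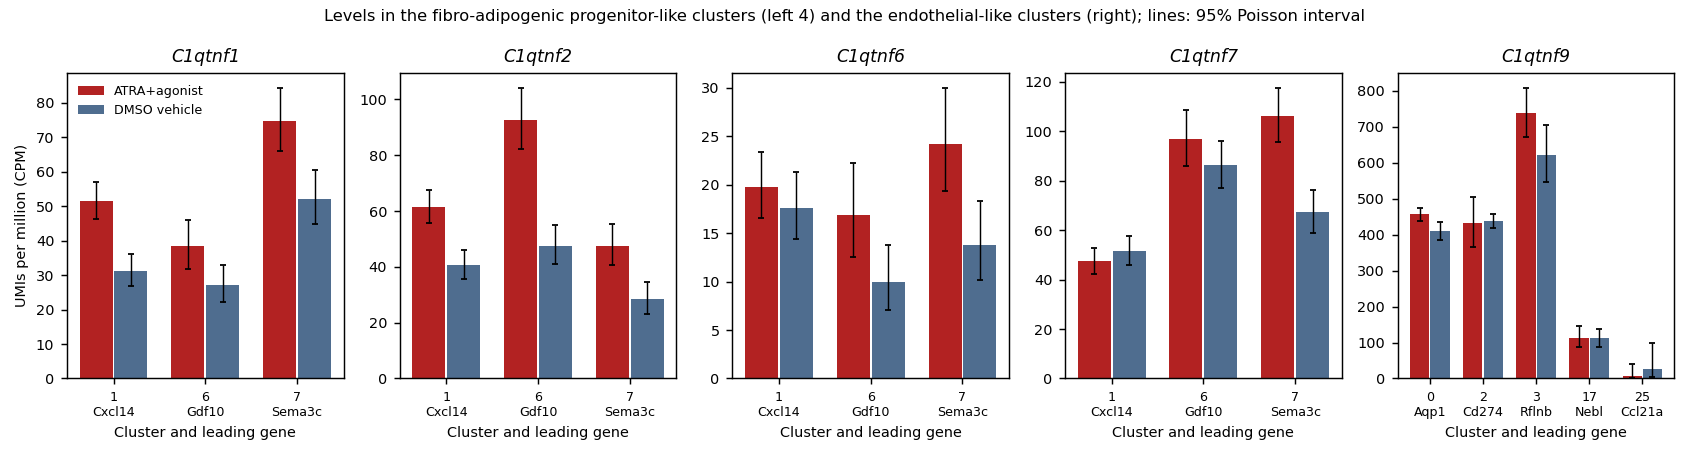
Levels (CPM, bars from 0, with 95% Poisson intervals) of C1qtnf1, C1qtnf2, C1qtnf6 and C1qtnf7 in the 3 FAP-like clusters and of C1qtnf9 in the 5 endothelial-like clusters, each named by its number and first leading gene, in ATRA+agonist (red) and DMSO vehicle (blue). C1qtnf1 is highest in cluster 7 and C1qtnf2 in cluster 6, and C1qtnf9 stands at 737 and 623 CPM in cluster 3, at 114 and 111 CPM in cluster 17 and, on 1 and 2 UMIs, at 7.10 and 27.7 CPM in cluster 25.

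C1qtnf9 (CTRP9), a vascular member known to relax vessels through the adiponectin receptor AdipoR1, was close to even between the libraries. Endothelial-like cells held 3223 UMIs in 2453 cells of ATRA+agonist (446 CPM, 431 to 462) and 3204 in 2283 cells of vehicle (403 CPM, 390 to 418), a log2 ratio of 0.14 (0.07 to 0.22) beside a median of 0.08 over all genes of the class. A UMI was found in 62.0% (60.1 to 64.0) and 64.2% (62.2 to 66.2) of cells, and in 35.6% and 33.2% after thinning to 1000 UMIs, which left out 479 and 231 shallower cells. FAP-like cells set the background share, at 0.768% and 0.44%. Of the 3 genes of the set with a ratio in this class, 0 were past 2-fold, where 2.49% of all genes were higher and 2.43% lower.

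The endothelial-like class was made up differently in the 2 libraries. Cluster 0, led by the capillary genes Aqp1 and Kdr, held 64.4% of the class in ATRA+agonist and 30.7% in vehicle, and cluster 2, led by the interferon-response genes Cd274 and Gbp4, held 3.79% and 46.5%. C1qtnf9 was at 456 and 410 CPM in cluster 0 (log2 ratio 0.15, 0.05 to 0.26) and at 431 and 438 CPM in cluster 2 (-0.02, -0.27 to 0.21), so its level in vehicle cells was close in both clusters. It was higher in cluster 3, whose cells were shallow (medians of 776.5 and 899 UMIs) and which C1qtnf9 itself helped to lead, at 737 and 623 CPM. Arterial cells of cluster 17, led by Nebl and Sema3g, carried it at 114 (86.5 to 147) and 111 (88.7 to 138) CPM, below the other 3 clusters in both libraries. The lymphatic genes Ccl21a and Prox1 led cluster 25, which was too small for a ratio. In cluster 12, an unnamed cluster led by Dach1 with shallow cells (medians of 1194 and 1914 UMIs), C1qtnf9 had 34 and 26 UMIs (180 and 58.3 CPM, 1.62, 0.84 to 2.42).

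Outside endothelial-like cells C1qtnf9 was low. Schwann-like cells had 20 and 55 UMIs (27.0 and 27.6 CPM), a log2 ratio of -0.03 (-0.85 to 0.73). Muscle fiber-like cells, found only in ATRA+agonist, had 23 UMIs in 11 of 230 cells (60.3 CPM, 38.2 to 90.4). Smooth muscle or pericyte-like cells held 7 and 21 UMIs (-1.08, -2.55 to 0.21), and 1 gene of the set, this one, was past 2-fold lower and 0 of 5 higher there, where 2.56% of all genes were higher and 4.24% lower.

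**Figure D4:**
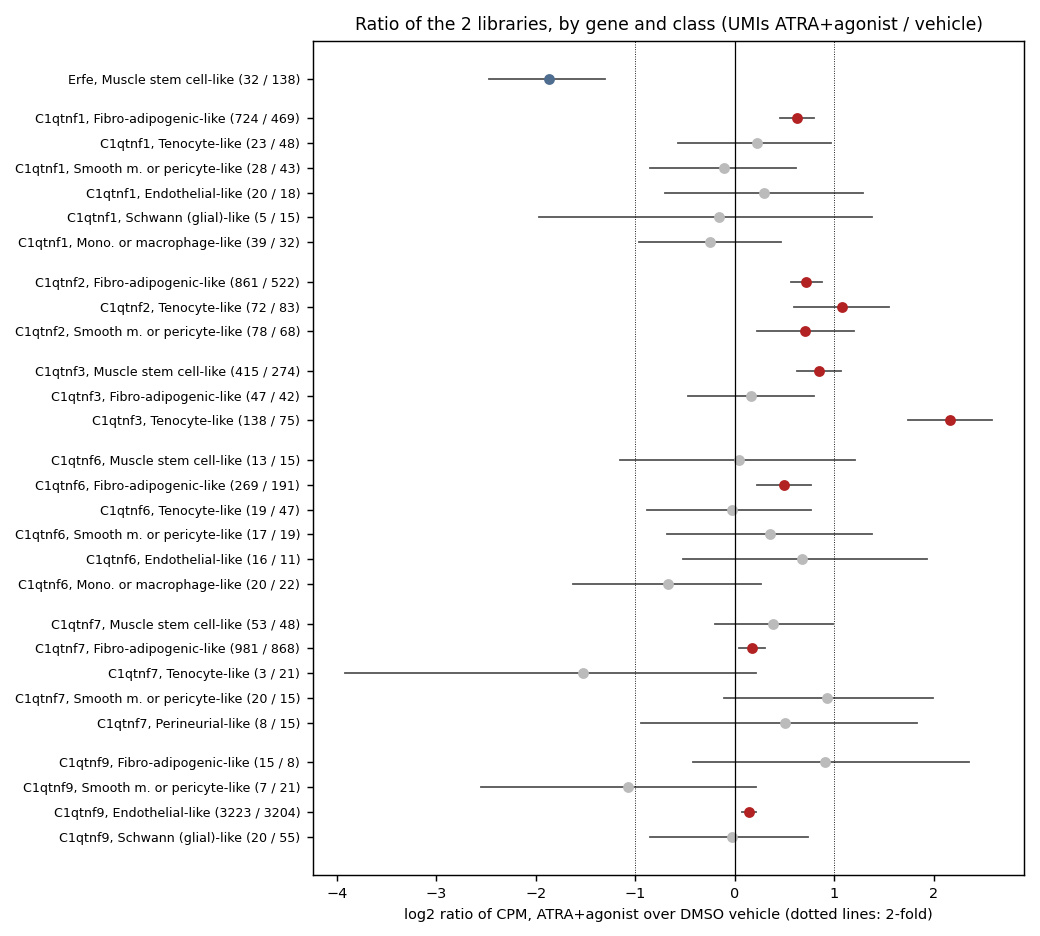
log2 ratio of CPM, ATRA+agonist over DMSO vehicle, for each gene and class with at least 20 UMIs, with 95% counting intervals; numbers in brackets are UMIs in ATRA+agonist and vehicle, and dotted lines mark 2-fold. Red points have an interval above 0, blue points below 0 and grey points across 0: Erfe in muscle stem cell-like cells (-1.86) is the 1 blue point, and C1qtnf3 in tenocyte-like cells (2.16) lies farthest right.

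The receptors of the family were measured in the same cells. Adipor1 and Adipor2, the adiponectin receptors, had ratios of 0.09 (-0.03 to 0.21) and -0.34 (-0.44 to -0.24) in endothelial-like cells, and Cdh13 (T-cadherin, which binds adiponectin) stood at 1535 and 1512 CPM there (0.02, -0.02 to 0.06). Of the 5 receptors, 3 had a ratio in endothelial-like cells and 0 were past 2-fold, where 2.49% of all genes were higher and 2.43% lower. In muscle stem cell-like cells 4 had a ratio, and 1 was past 2-fold higher, where 2.83% of all genes were higher and 2% lower. It was Adgrb3, an adhesion receptor for C1q-like proteins, with 25 and 6 UMIs (2.30, 0.98 to 3.88). In smooth muscle or pericyte-like cells 1 of 3 was past 2-fold lower, Cdh13, with 3 and 45 UMIs (-3.40, -5.73 to -1.76). Over all genes there, 2.56% were higher and 4.24% lower. In FAP-like cells Rxfp1 had 15 and 6 UMIs (1.32, -0.13 to 2.97), and the other 3 with a ratio lay between -0.40 and -0.04. Over all genes of that class, 1.2% were past 2-fold higher and 3.69% lower.

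The share of the 24 other genes with a C1q domain that were past 2-fold varied between classes. Over all genes, 2.83% were higher and 2% lower in muscle stem cell-like cells, and 1.2% and 3.69% in FAP-like cells. The shares were 2.49% and 2.43% in endothelial-like cells and 2.08% and 5.47% in tenocyte-like cells. In smooth muscle or pericyte-like cells they were 2.56% and 4.24%. In muscle stem cell-like cells 9 had a ratio and 0 were past 2-fold (median 0.00), with Col8a1, a short-chain collagen, at 291 and 398 CPM (-0.45, -0.57 to -0.33). In FAP-like cells 13 had a ratio, and C1ql3 (30 and 11 UMIs, 1.44, 0.41 to 2.59) and C1qa, a macrophage gene (7 and 25 UMIs, -1.84, -3.29 to -0.59), were past 2-fold. In endothelial-like cells Mmrn1, multimerin of platelets and lymphatic vessels, was the 1 of 9 past 2-fold, with 240 and 77 UMIs (1.78, 1.40 to 2.17). With Ccl21a and Prox1, Mmrn1 was a leading gene of cluster 25, which held 0.978% of the class in ATRA+agonist and 0.613% in vehicle. The part of that cluster in the ratio was not tested. In tenocyte-like cells Caprin2 stood at 38.1 and 80.5 CPM (-1.08, -1.56 to -0.62) and Emilin2, a matrix glycoprotein of elastic fibres, had 11 and 13 UMIs (1.04, -0.26 to 2.31). In smooth muscle or pericyte-like cells 3 of 5 were past 2-fold, C1qtnf12 (28 and 19 UMIs, 1.07) higher, and Col8a1 (15 and 54 UMIs, -1.34) and Caprin2 (18 and 52 UMIs, -1.02) lower. In Schwann-like cells 3 of 6 were, Col8a1 (20 and 25 UMIs, 1.11) higher, and C1ql1 (1 and 23 UMIs, -3.10, -8.46 to -0.47) and Emilin1 (5 and 34 UMIs, -1.34) lower, where 2.72% of all genes were higher and 6.21% lower.

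The distribution over 10 classes in 2 libraries (20 points, which share libraries) was set beside those of 15282 genes with at least 100 UMIs, by Pearson's r of log2(CPM + 10), as a description. The genes most like Erfe were Spata4, Usp29 and Lmod2, the last an actin nucleator of striated muscle (r of 0.959, 0.949 and 0.948). C1qtnf3 was most like Bmpr1b, a BMP receptor, Elovl4 and Sytl5 (0.931, 0.913 and 0.883). C1qtnf1 was most like the collagen gene Col6a3, Wdr66 and Cygb (0.929, 0.925 and 0.924), and C1qtnf2 most like Cygb, Naalad2 and Aspn (0.963, 0.962 and 0.951). C1qtnf6 was most like Shox2, Gpr153 and Cygb (0.930, 0.921 and 0.917), and C1qtnf7 most like Hspb8, the chemokine gene Ccl11 and Lrp3 (0.962, 0.953 and 0.927). C1qtnf9 was most like Gm13748, Cyyr1 and Clca3a1 (0.979, 0.974 and 0.970). Within the set C1qtnf1 and C1qtnf2 were the closest pair (0.913), the 4 stromal genes lay at 0.693 to 0.913 of each other, and Erfe and C1qtnf3 at 0.558.

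**Figure D5:**
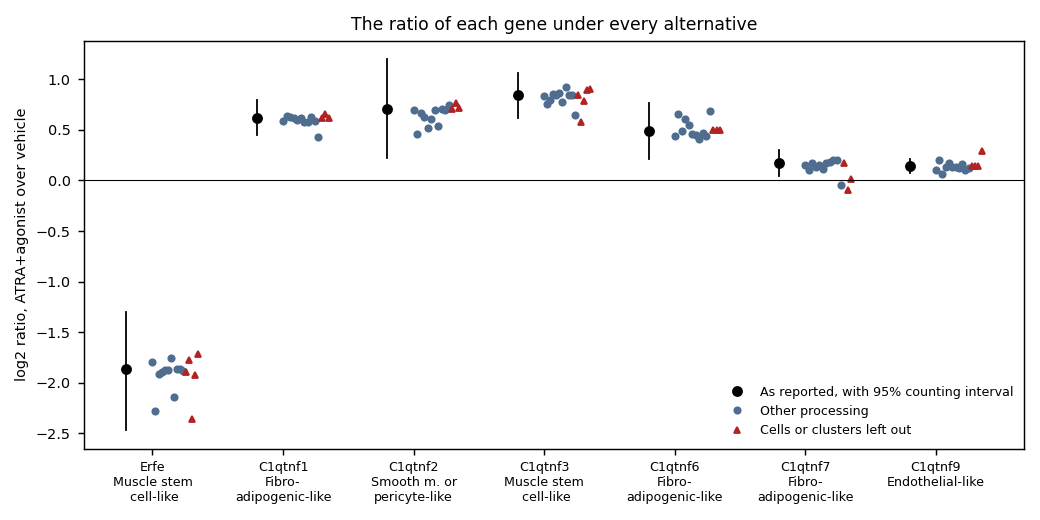
log2 ratio of each gene in the class named with it (ATRA+agonist over DMSO vehicle), as reported (black, with its 95% counting interval), under other processing (blue) and with cells or clusters left out (red). Erfe stays between -2.36 and -1.72 and C1qtnf3 between 0.58 and 0.93, while C1qtnf7 crosses 0.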

How the data were processed

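The deposited counts are raw UMI counts per gene and barcode, unnormalized; the file headers name Cell Ranger 7.2.0 and the study's methods mm10 (GRCm38); both libraries were sequenced together, per those methods. FastQC and kallisto are also named in the submitters' processing notes, and the study's methods give both for its bulk RNA-Seq. Kept cells had 300 to 5000 genes, under 20% mitochondrial and under 0.25% Hbb UMIs, and 7.5% of barcodes per library with the highest simulated-doublet score were removed as doublets. The kept cells held 41590031 and 40598327 UMIs. Clustering used 2000 variable genes, 30 components and Louvain resolution 0.8 (Python 3.11.15, scikit-learn 1.9.0, python-igraph 0.11.9), without the 7 genes and their related lists (the state genes of muscle stem cells were kept). Clusters were named from marker lists, if at least 3 markers were enriched.

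UMIs were summed per library and class. Levels have exact Poisson intervals, shares exact Clopper-Pearson intervals, log2 ratios exact intervals given the summed count, and ratios of shares a log-scale interval, all at 95%; a count of 0 allows up to 3. Ratio intervals were run on simulated counts drawn from the counting model that they assume. That run cannot show how well they cover counts held by few cells. UMIs count molecules, but the intervals leave out variation between mice. The 7 genes, gene lists and comparisons were chosen with earlier results of these data known. Named genes were the 7, for each the 3 of most similar distribution, up to 4 per related list by size of ratio, state genes of muscle stem cells and leading genes of clusters. The 11 alternative settings, and 6 added after seeing the data, are in the closing section.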

Additional observations from a re-analysis of the deposited data

Results flagged for a closer look

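C1qtnf7 had log2 ratios of opposite sign in different clusters, with counting intervals on either side of 0. It was lower in ATRA+agonist in cluster 19, an unnamed cluster led by Nova1, Sdk1 and Slit3 (18 and 52 UMIs, -1.16, -2.02 to -0.36). It was higher in the FAP-like cluster 7 (0.66), in the smooth muscle-led cluster 21 (17 and 11 UMIs, 2.21, 1.04 to 3.45) and in the unnamed cluster 23, led by Tenm2, Apod and Gpc3 (43 and 35 UMIs, 0.95, 0.27 to 1.64). These differences between clusters were not tested, since each library is 1 sample. The 3 higher values rested on 1 cell of ATRA+agonist each, which held 121 of 368 UMIs in cluster 7, 14 of 17 in cluster 21 and 20 of 43 in cluster 23. Without the richest cell of each library the ratios were 0.20 (-0.07 to 0.47), -0.13 (-2.63 to 1.83) and 0.33 (-0.52 to 1.17), whose intervals include 0, and that of cluster 19 was -1.52 (-2.58 to -0.57).

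Barcodes that the filters removed carried some genes of the set at a higher level in ATRA+agonist than in vehicle, and others at a lower level. C1qtnf3 was at 144 CPM (128 to 162) in the barcodes with over 5000 genes and at 98.2 CPM (85.5 to 112) in those of vehicle. C1qtnf9 was at 151 CPM (139 to 163) in the 560 barcodes removed as doublets and at 82.7 CPM (74.4 to 91.6) in the 564 of vehicle. Other values lay lower in ATRA+agonist, with intervals that did not overlap. C1qtnf7 was at 5.98 CPM (3.87 to 8.82) against 20.1 (16.1 to 24.7) in the barcodes removed as doublets. In those removed for hemoglobin C1qtnf3 was at 0.509 (0.0129 to 2.84) against 4.39 (3.13 to 5.97). Erfe was at 0.485 (0.0123 to 2.70) against 8.30 (4.92 to 13.1) in those with over 5000 genes.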

How the results depend on the processing

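There were 11 other settings and 6 more chosen after seeing the data. Under the 16 run for muscle stem cell-like cells the log2 ratio lay between -2.36 and -1.72 for Erfe and between 0.58 and 0.93 for C1qtnf3. The added ones left out the interferon-led endothelial-like cluster, the low-UMI muscle stem cell-like cluster, cells with a Myog UMI, barcodes found in both libraries, or the richest 1 or 10 cells. Thinning to 1000 UMIs per cell moved the log2 ratio of C1qtnf1 in FAP-like cells to 0.43. Its ratio of shares moved from 1.70 to 1.33 (0.935 to 1.89, which includes 1). Under the same thinning the C1qtnf3 ratio of shares moved from 1.22 to 1.82 (1.07 to 3.09), and that of Erfe from 0.456 to 0.287 (0.0977 to 0.840). That of C1qtnf9 moved from 0.966 to 1.07 (0.985 to 1.17), and the C1qtnf7 log2 ratio to -0.045. That C1qtnf7 ratio was -0.0899 without the 10 richest cells and 0.0119 without the richest cell. Without Myog cells the C1qtnf3 ratio was 0.58. The C1qtnf9 log2 ratio was 0.0649 with median-of-ratios scaling and 0.29 without the interferon-led cluster, and its ratio of shares was 1.11 without that cluster, 1.03 with a minimum of 500 genes and 1.02 with no hemoglobin filter. Of the other gene and class pairs that were past 2-fold as reported, 2 changed sign. C1qtnf2 in tenocyte-like cells did so when thinned (-0.46). C1qtnf9 in smooth muscle or pericyte-like cells did so when each cell took its class from the markers it held (0.56). The cause was not tested. Pairs with smaller ratios also changed sign under some settings. Among them, C1qtnf6 in tenocyte-like cells kept its sign in 7 of 13 settings. C1qtnf7 in perineurial-like cells did in 7 of 10, and C1qtnf3 in FAP-like cells in 10 of 14. No paired analysis was possible because each group has 1 library. For the same reason no library could be left out, and differences between mice cannot be told apart from the treatment.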
